A study of Rattus norvegicus with 47 samples.

Results

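Collagens, the enzymes that cut and cross-link the extracellular matrix, and the inhibitors of those enzymes were followed through rat liver lesions from preneoplastic foci to carcinoma. A gene was included if its probe set carried a single symbol of a collagen chain (Col, a number, a, a number), or a symbol that begins with Mmp, Timp or Adamts, or one of Lox and Loxl1 to Loxl4. This gave 82 of the 14217 genes measured: 41 collagen chains, 17 matrix metalloproteinases, 4 tissue inhibitors of metalloproteinases, 12 ADAMTS proteases, 4 ADAMTS-like proteins and 4 lysyl oxidases. Where a gene had several probe sets, the brightest on average within a tissue preparation stood for it.

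The lesions came from male Wistar rats given 1 dose of N-nitrosomorpholine, a DNA-damaging nitrosamine (250 mg/kg), at 4 weeks of age, followed by 3 weeks of recovery and then phenobarbital in the drinking water (50 mg/kg daily), lasting at most 17 months. Surrounding liver, the control throughout, had the same exposure. Frozen tissue gave 7 arrays of surrounding liver (5 animals), 5 of nodules (3 animals), 6 of adenomas (2 animals), 4 of carcinomas (3 animals) and another 4 of carcinomas whose label names a beta-catenin mutation, called labelled carcinomas here (3 animals). Laser-microdissected, formalin-fixed and paraffin-embedded (FFPE) tissue gave 4 arrays of surrounding liver (4 animals), 9 of foci (3 animals) and 5 of adenomas (3 animals). Another 3 arrays, labelled C43 normal, are in no comparison. Several lesions of a group come from the same rat, and the fits carry the animal as a term.

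Collagens form the scaffold between cells: fibrillar chains such as Col1a1, Col1a2 and Col3a1 build the fibres laid down in scarring liver, while the type IV chains form the sheet-like network of basement membranes. Lysyl oxidases cross-link collagen and elastin, matrix metalloproteinases (MMPs) and ADAMTS enzymes cut matrix proteins, and TIMPs block the MMPs. In liver, stellate cells and portal fibroblasts are the main makers of fibrillar collagen, and macrophages are a main source of Mmp12, the elastase that degrades elastin.

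All values are log2 signals as deposited, so a step of 1 is a doubling of signal. Changes are log2 differences from surrounding liver ± standard error, fitted by limma with animals as blocks, and "rose" or "fell" is used where the p, adjusted by Benjamini-Hochberg across the 14217 genes, was under 0.05. Array medians spanned 5.49 to 5.59 for frozen arrays and 5.58 to 5.68 for FFPE arrays, and 60 of the 82 genes lay below the median gene level in each preparation. The 10 hepatocyte markers summed to 16.76 or more in every frozen and 16.58 or more in every FFPE array. In frozen tissue the sum ran from 17.17 to 17.26 in surrounding liver and 17.08 to 17.24 in nodules. It reached at most 17.16 in adenomas, 17.09 in carcinomas and 17.08 in labelled carcinomas, all below every surrounding array. In FFPE tissue it ran from 16.64 to 16.88 in surrounding liver, 16.58 to 16.70 in foci and 16.65 to 16.85 in adenomas. Labelled carcinoma replicate 1 and FFPE adenoma replicate 4 were placed by their group labels, while the source name of the first names no mutation and that of the second names surrounding tissue. Animal 21 is named from the titles, since another label gives other numbers for it. The lesion groups of a preparation share their surrounding arrays, so their changes are not independent of each other. In these tissue samples fewer cells of a type and less RNA per cell cannot be told apart.

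Start-site sequences are shown for genes whose signals are described most below: Mmp12, which rose in 5 of the 6 comparisons with surrounding liver, the neighbouring type IV chains Col4a1 and Col4a2, and the fibrillar chain Col1a2. Each runs 5′ to 3′ on the gene's own strand, from 250 bases before to 50 bases after the RefSeq start in the GRCr8 assembly. Capitals mark CCAAT (or ATTGG, its reverse complement) and TGANTCA, the consensus bound by AP-1 factors, both searched on both strands.
Mmp12: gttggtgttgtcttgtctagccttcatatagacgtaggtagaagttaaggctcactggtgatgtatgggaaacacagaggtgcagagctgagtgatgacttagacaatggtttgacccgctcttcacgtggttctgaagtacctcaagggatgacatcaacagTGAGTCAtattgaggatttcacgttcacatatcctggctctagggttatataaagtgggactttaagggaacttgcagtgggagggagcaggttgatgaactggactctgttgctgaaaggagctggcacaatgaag
Col4a1: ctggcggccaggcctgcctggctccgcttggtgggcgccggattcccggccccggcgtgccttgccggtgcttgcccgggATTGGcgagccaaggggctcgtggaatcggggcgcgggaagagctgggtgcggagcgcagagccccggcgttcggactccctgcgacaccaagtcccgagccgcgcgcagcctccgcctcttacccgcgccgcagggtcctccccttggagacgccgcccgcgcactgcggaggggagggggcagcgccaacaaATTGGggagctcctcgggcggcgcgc
Col4a2: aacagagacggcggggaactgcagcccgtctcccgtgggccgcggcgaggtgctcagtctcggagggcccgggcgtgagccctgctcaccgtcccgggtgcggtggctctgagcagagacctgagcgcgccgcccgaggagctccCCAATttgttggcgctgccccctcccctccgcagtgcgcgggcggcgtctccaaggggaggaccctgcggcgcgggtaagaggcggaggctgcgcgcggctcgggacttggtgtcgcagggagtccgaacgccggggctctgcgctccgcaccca
Col1a2: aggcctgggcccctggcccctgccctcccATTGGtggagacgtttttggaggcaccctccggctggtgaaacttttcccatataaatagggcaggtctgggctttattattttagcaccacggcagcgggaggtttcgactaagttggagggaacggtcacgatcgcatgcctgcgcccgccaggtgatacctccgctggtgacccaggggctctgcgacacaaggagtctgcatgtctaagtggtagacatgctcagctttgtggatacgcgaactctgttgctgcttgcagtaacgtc
The windows lie at chr8:12866402-12866701 (plus strand) for Mmp12, chr16:84885347-84885646 (plus strand) for Col4a1, chr16:84885471-84885770 (minus strand) for Col4a2 and chr4:33518307-33518606 (plus strand) for Col1a2. The Col4a1 and Col4a2 starts face away from each other 77 bases apart, and their windows share 176 bases. TGAGTCA begins 87 bases before the Mmp12 start, and TGANTCA was present in 7.33% of 33469 promoter windows and in 9.09% of 66 windows of the matrix genes. CCAAT in either orientation was present in 37.5% of all windows and in 27.3% of the matrix windows. The matches are descriptions of these letters only. Windows were available for 60 of the 82 genes.

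Against surrounding liver, a smaller share of the matrix genes than of all genes passed in frozen adenomas and carcinomas, and a larger share in FFPE lesions, a difference in shares that was not tested. In frozen adenomas 15 of 82 passed, 9 higher and 6 lower, against 25% of all genes (15.4% higher, 9.57% lower). In frozen carcinomas 7 of 82 passed, 5 higher and 2 lower, against 11.4% of all genes (4.48% higher, 6.91% lower). In labelled carcinomas 11 passed, 7 higher and 4 lower, against 17.3% (7.74% higher, 9.58% lower), and 6 passed without replicate 1. No matrix gene passed in nodules, where limma called 0.225% of all genes (0.19% higher, 0.0352% lower). There limma gave 8 of the 82 an unadjusted p under 0.05, beside 1811 of all 14217 genes. In FFPE foci 5 passed, all higher, against 3.18% of all genes (1.81% higher, 1.36% lower). In FFPE adenomas 6 passed, 5 higher and 1 lower, against 2.16% (1.29% higher, 0.872% lower), and 5 passed without replicate 4, when foci had 4. In all, 27 of the 82 genes passed in at least 1 comparison. How many of all genes did so was not counted, so this number has no general share beside it. The median change over the 82 genes was 0.06 in nodules, 0.13 in adenomas, 0.10 in carcinomas, 0.11 in labelled carcinomas, 0.02 in foci and 0.22 in FFPE adenomas, beside medians over all genes between -0.02 and 0.02 in each.

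**Figure D1:**
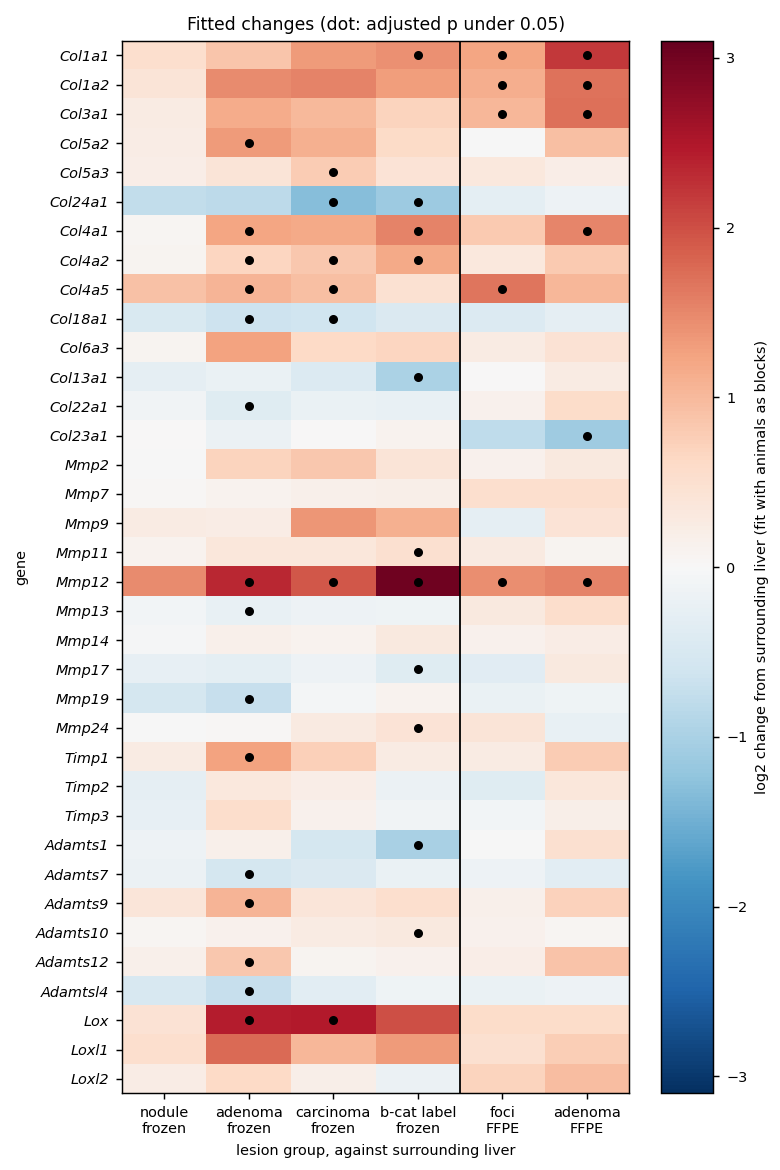
Fitted log2 changes from surrounding liver for the 36 named matrix genes (rows) in 4 frozen and 2 FFPE lesion groups (columns, split by a line). Black dots mark an adjusted p under 0.05. Mmp12 is the row with most dots, and the type IV chains, Lox and the FFPE fibrillar collagens carry most of the other rises.

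Mmp12 signal rose in every lesion group except nodules, where its fitted change of 1.46 ± 0.36 missed the threshold (adjusted p = 0.0765). Surrounding liver read from 4.96 to 8.10 (median 6.18), adenomas from 8.26 to 9.64 (median 8.89). The 5 nodules read 7.38, 6.83, 8.53, 8.52 and 7.73. All 6 adenomas lay above all 7 surrounding arrays, as 5.27% of all genes did, and 3 of the 5 nodules lay below the highest surrounding array. The 4 carcinomas read 7.89, 8.43, 9.24 and 7.92. The 4 labelled carcinomas read 9.17, 8.70, 9.74 and 9.65. Every labelled carcinoma was above every surrounding array, beside 4.11% of all genes. Of the 4 carcinomas 2 were below the highest surrounding array, replicate 5 of animal 21, which at 8.10 stood well above the next at 7.01. The fitted rise was 2.34 ± 0.35 in adenomas (5.07-fold, adjusted p = 0.000113, higher in 2 of 2 animals). It was 1.93 ± 0.38 in carcinomas (3.81-fold, adjusted p = 0.0025, 3 of 3 animals) and 3.01 ± 0.36 in labelled carcinomas (8.06-fold, adjusted p = 2.27e-05, 3 of 3 animals). All 3 calls were kept without any single array and with the labelled control set as the block in place of the animal.

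Macrophage marker genes went the other way in the same arrays. Of 14 listed markers 9 were measured, and 4 fell in adenomas, 4 in carcinomas and 6 in labelled carcinomas, with no rise in any of these. The shares of all genes that fell were 9.57%, 6.91% and 9.58% in the same order. Clec4f, a receptor of resident liver macrophages (Kupffer cells), fell by 1.13 in adenomas, by 0.95 in carcinomas and by 1.18 in labelled carcinomas. Cd163, a haemoglobin scavenger receptor of macrophages, fell by 0.72, 1.45 and 1.75 on the log2 scale in the same order. The summed signal of the 9 markers ran from 12.43 to 13.11 in surrounding liver, 12.11 to 12.34 in nodules, 11.43 to 12.70 in adenomas, 11.48 to 12.46 in carcinomas and 11.28 to 12.11 in labelled carcinomas. The part of macrophage number in the Mmp12 values was not tested.

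Among the gelatinases, which cut denatured collagen and type IV collagen, neither Mmp2 nor Mmp9 passed. Mmp2 read 5.94 to 8.22 in adenomas (median 7.13) over a control range of 5.97 to 6.70, with a fitted change of 0.69 ± 0.52 (adjusted p = 0.352). Mmp9 gave a fitted change of 1.36 ± 0.45 in carcinomas (adjusted p = 0.0542) and 1.10 ± 0.43 in labelled carcinomas (adjusted p = 0.0871). Its signal reached 5.89 in carcinomas and 5.85 in labelled carcinomas, beside 3.22 to 4.09 in surrounding liver. Mmp14, the membrane-bound activator of Mmp2, kept to 0.29 ± 0.17 or less in frozen lesions, and Mmp7, the small metalloproteinase matrilysin, to 0.18 ± 0.15 or less.

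The other protease calls were smaller. Mmp19, which cuts basement membrane proteins, fell in adenomas by 0.72 on the log2 scale (SE 0.17, adjusted p = 0.00378). Surrounding liver read 6.07 to 7.00 (median 6.59) and adenomas 5.24 to 6.09 (median 5.67), so that only the top adenoma overlapped the bottom of the control range. With the control set as block the fall was 0.60 and the call was lost (adjusted p = 0.0534). Mmp13, a collagenase whose mean lay at the 0.521 percentile of all genes, read 2.56 to 2.76 in adenomas and 2.69 to 3.05 in surrounding liver. In labelled carcinomas Mmp11 (stromelysin-3) rose by 0.50 ± 0.14, Mmp24 rose by 0.42 ± 0.12 and Mmp17 fell by 0.38 on the log2 scale. Mmp17 and Mmp24 are membrane-type metalloproteinases. These 3 calls were lost with the control set as block (adjusted p = 0.154, 0.245 and 0.0686). Another Mmp24 probe set gave -0.14 ± 0.13 in the same comparison.

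Of the 4 inhibitors, 1 passed: Timp1, a broad MMP inhibitor, rose in adenomas. Surrounding liver read 5.83 to 6.75 (median 6.26), and adenomas read 6.76 to 8.22 (median 7.40). No adenoma overlapped the control arrays, as for 5.27% of all genes that were wholly higher, although the lowest lay next to the highest control. The rise was 1.26 ± 0.35 (2.39-fold, adjusted p = 0.0113, higher in 2 of 2 animals). The carcinomas read 7.14, 6.61, 5.90 and 7.75, the labelled carcinomas 7.37, 6.39, 5.88 and 5.84, and the nodules 6.55, 6.51, 7.10, 7.98 and 6.65. These groups held arrays both inside and above the control range. Timp2 and Timp3 passed in no comparison; their fitted changes in adenomas were 0.33 ± 0.49 and 0.55 ± 0.27.

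**Figure D2:**
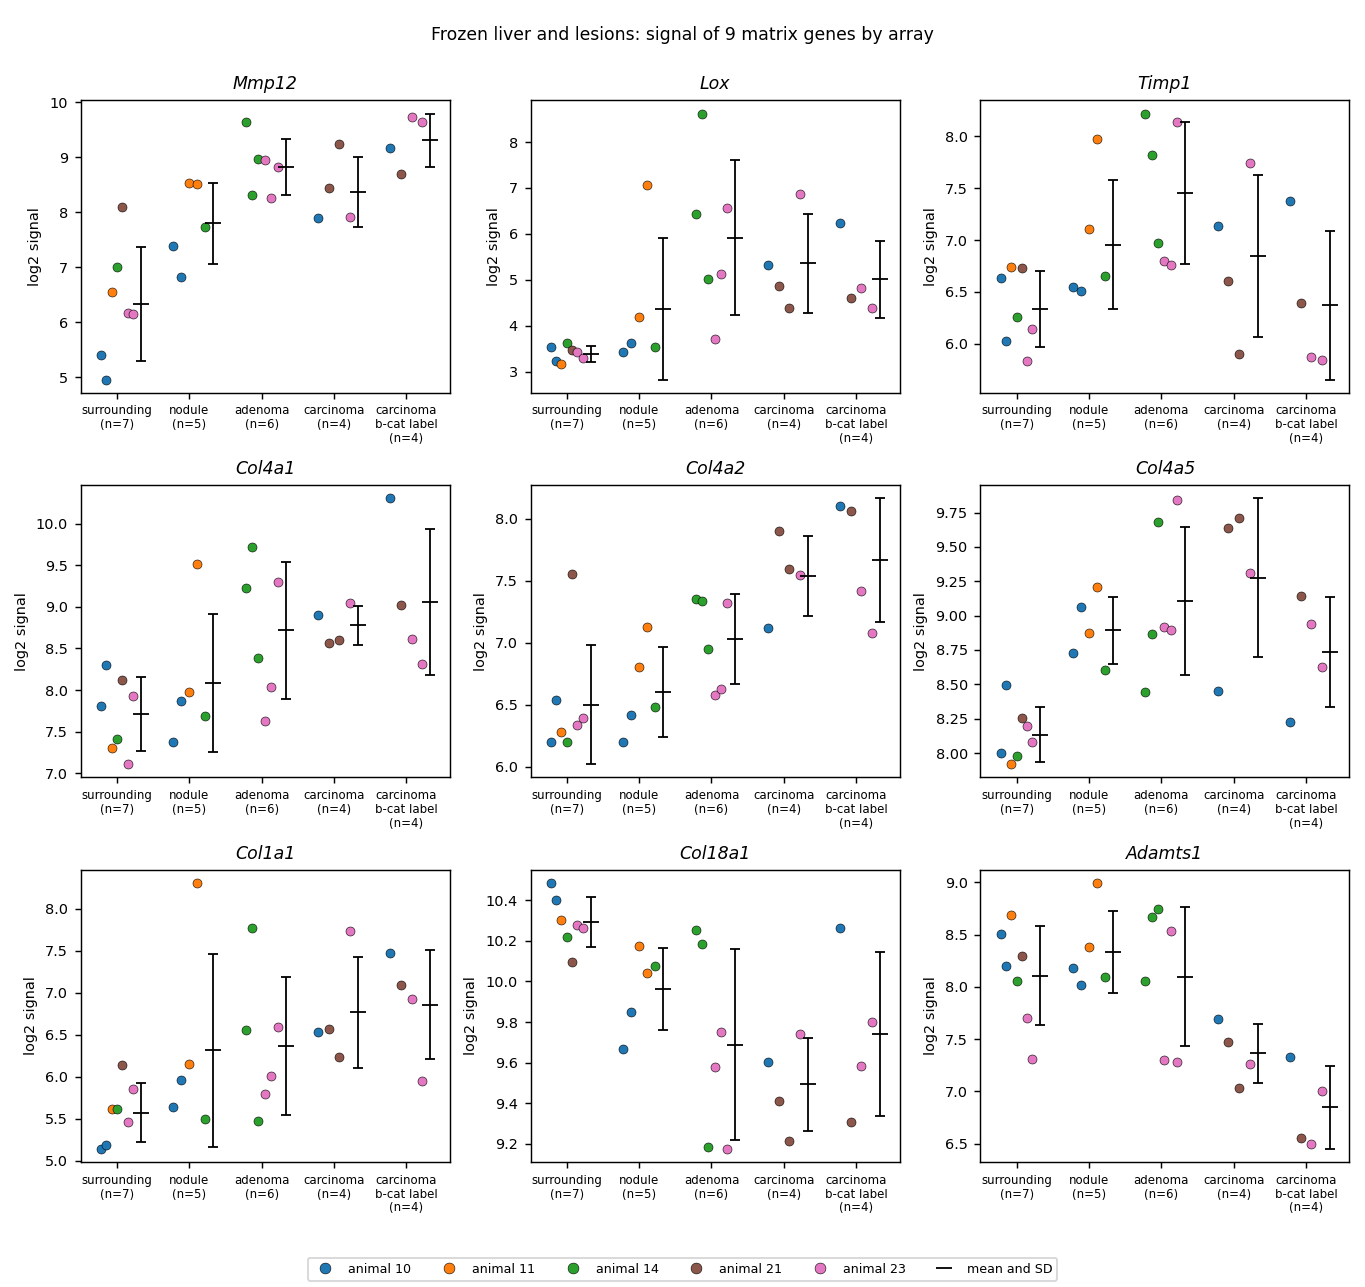
Log2 signal of 9 matrix genes in the 26 frozen arrays by group, coloured by animal, with the group mean and SD beside the points. Mmp12 of all 6 adenomas and all 4 labelled carcinomas lies above all surrounding arrays, Lox spreads widely among lesions over a narrow control range of 3.16 to 3.63, and Adamts1 is lowest in the labelled carcinomas.

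Among the basement membrane chains, Col4a1, Col4a2 and Col4a5 each rose in some frozen lesion groups and Col18a1 fell. Of 7 measured genes of this group, 3 rose and 1 fell in adenomas, 2 rose and 1 fell in carcinomas, 2 rose in labelled carcinomas and none passed in nodules. Among all genes 15.4% rose and 9.57% fell in adenomas, 4.48% and 6.91% in carcinomas and 7.74% and 9.58% in labelled carcinomas. Col4a1, which encodes one of the main type IV chains, read 7.11 to 8.30 in surrounding liver (median 7.81) and 7.62 to 9.72 in adenomas (median 8.81). Its nodules read 7.38, 7.87, 7.98, 9.51 and 7.69, its carcinomas 8.90, 8.57, 8.60 and 9.04, and its labelled carcinomas 10.31, 9.02, 8.61 and 8.31. Both carcinoma groups lay wholly above the surrounding arrays, whereas 2 adenomas and 4 nodules lay within their range. Genes that lay wholly above made up 5.61% of all genes for carcinomas and 4.11% for labelled carcinomas. Col4a1 rose by 1.22 ± 0.40 in adenomas (adjusted p = 0.0289) and by 1.54 ± 0.41 in labelled carcinomas (adjusted p = 0.0118), and in carcinomas its change of 1.17 ± 0.42 did not pass (adjusted p = 0.0803). The second Col4a1 probe set gave 1.80 ± 0.43, 1.96 ± 0.44 and 1.62 ± 0.46 in that order. The adenoma call was lost without surrounding replicate 4 (adjusted p = 0.101) or adenoma replicate 6 (0.0969), and that of the labelled carcinomas without their replicate 1 (0.0903) or with the control set as block (0.174).

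Col4a2, the partner chain of Col4a1, rose in all 3 of these groups. The carcinomas read 7.12, 7.90, 7.59 and 7.54 and the labelled carcinomas 8.10, 8.06, 7.42 and 7.08. Surrounding liver read 6.20 to 7.56 (median 6.34), with 6 of 7 arrays at or below 6.53 and replicate 5 at 7.56. Without that array no carcinoma or labelled carcinoma would overlap the controls. The rise was 0.68 ± 0.21 in adenomas (adjusted p = 0.0203), 0.84 ± 0.22 in carcinomas (adjusted p = 0.0161) and 1.17 ± 0.21 in labelled carcinomas (adjusted p = 0.000737). The carcinoma call was lost with the control set as block (adjusted p = 0.137) and without carcinoma replicate 4 (adjusted p = 0.176), and the adenoma call without surrounding replicate 4 (adjusted p = 0.0893) or adenoma replicate 6 (adjusted p = 0.0694).

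Col4a5, a chain of the alpha3-alpha4-alpha5 network, showed a different order of groups. All 5 nodules, at 8.73, 9.06, 8.87, 9.21 and 8.60, were above the surrounding range of 7.92 to 8.49 (median 8.08), the single matrix gene to do so in nodules, beside 1.53% of all genes. Their fitted change of 0.91 ± 0.22 did not pass (adjusted p = 0.0783). Adenomas read 8.44 to 9.84 (median 8.91) and rose by 1.04 ± 0.22 (adjusted p = 0.00185). Carcinomas, at 8.45, 9.63, 9.71 and 9.31, rose by 0.93 ± 0.24 (adjusted p = 0.0139), a call lost with the control set as block (adjusted p = 0.0614). Labelled carcinomas, at 8.22, 9.14, 8.94 and 8.62, did not pass (0.48 ± 0.23, adjusted p = 0.159).

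Of 12 measured endothelial markers, 1 rose in adenomas and 2 fell in labelled carcinomas. Of all genes, 15.4% rose in adenomas and 9.58% fell in labelled carcinomas, so these few calls lay near the general shares. Emcn, a sialomucin of vessel walls, rose by 1.13 ± 0.28 in adenomas, while Kdr, a VEGF receptor, fell by 0.63 and Ptprb, the endothelial phosphatase, fell by 0.62 in labelled carcinomas. Their summed signal ran from 12.33 to 12.62 in surrounding liver, 12.24 to 12.67 in nodules, 11.72 to 12.95 in adenomas, 11.92 to 12.63 in carcinomas and 11.60 to 12.13 in labelled carcinomas. In FFPE tissue it ran from 10.95 to 11.80 in surrounding liver, 10.92 to 11.79 in foci and 11.36 to 12.16 in adenomas. The part of endothelial cells in the type IV values was not tested.

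Col18a1, the basement membrane collagen that releases endostatin, moved down. Surrounding liver read 10.10 to 10.49 (median 10.28) and the carcinomas 9.61, 9.41, 9.22 and 9.74, all lower, beside 7.85% of all genes. Adenomas read 9.18 to 10.25 (median 9.66), with 2 of 6 in the control range. The fall was 0.65 in adenomas (SE 0.17, adjusted p = 0.00876) and 0.61 in carcinomas (SE 0.18, adjusted p = 0.0338). Neither call was kept with the control set as block (adjusted p = 0.0648 and 0.0632), the carcinoma call was lost without carcinoma replicate 1 (adjusted p = 0.196), and another Col18a1 probe set gave -0.37 ± 0.15 and -0.08 ± 0.16.

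Lox, the lysyl oxidase that starts collagen cross-linking, was low in every control array and varied widely among lesions. Surrounding liver read 3.16 to 3.63 (median 3.42), whereas adenomas read 3.72 to 8.62 (median 5.78). The carcinomas read 5.32, 4.86, 4.39 and 6.86 and the labelled carcinomas 6.23, 4.61, 4.83 and 4.39. All 14 of these lesions were above all 7 surrounding arrays. Genes wholly above surrounding liver made up 5.27% of all genes for adenomas, 5.61% for carcinomas and 4.11% for labelled carcinomas. Nodule replicate 4 read 7.07, and the other nodules 3.42, 3.63, 4.19 and 3.53. The rise was 2.44 ± 0.69 in adenomas (adjusted p = 0.0125) and 2.46 ± 0.73 in carcinomas (adjusted p = 0.0336), and labelled carcinomas gave 2.01 ± 0.71 (adjusted p = 0.0553). No detection calls were used here, so the control signal may be background, and no fold is given for Lox. The carcinoma call was lost with the control set as block (adjusted p = 0.159) and without carcinoma replicate 4 (adjusted p = 0.27), while the adenoma call was kept in every alternative in which Lox was tested. Loxl1, which acts in elastic fibre assembly, reached 9.43 in adenomas and 9.46 in nodules over a control range of 5.38 to 6.07 but passed in no comparison (1.76 ± 0.72 in adenomas, adjusted p = 0.0806). Loxl2, another collagen cross-linker, gave 0.63 ± 0.25 in adenomas (adjusted p = 0.0705).

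The fibrillar chains varied widely among the lesions of a frozen group. Of 11 measured fibrillar chains, 1 rose in adenomas, 1 rose and 1 fell in carcinomas and 1 rose and 1 fell in labelled carcinomas. These counts lay near the shares of all genes. Those were 15.4% higher and 9.57% lower in adenomas, 4.48% and 6.91% in carcinomas and 7.74% and 9.58% in labelled carcinomas. Col1a1 read 5.14 to 6.14 in surrounding liver (median 5.61) and 5.47 to 7.77 in adenomas (median 6.28). Its nodules read 5.64, 5.96, 6.15, 8.31 and 5.50, its carcinomas 6.54, 6.57, 6.23 and 7.74 and its labelled carcinomas 7.47, 7.09, 6.93 and 5.95. The carcinomas lay above all surrounding arrays, beside 5.61% of all genes, and in each other group at least 1 lesion lay within the control range. Col1a1 rose by 1.42 ± 0.46 in labelled carcinomas (adjusted p = 0.0379); this call was lost without labelled carcinoma replicate 1 (adjusted p = 0.182) and with the control set as block (adjusted p = 0.25). Col5a2, a chain of the type V collagen that helps start fibrils, rose by 1.33 ± 0.47 in adenomas (adjusted p = 0.0431), but passed in only 12 of 26 fits that each left out 1 array, with an adjusted p of 0.125 without adenoma replicate 6. Col5a3, another type V chain, rose by 0.79 ± 0.19 in carcinomas (adjusted p = 0.0108), and without carcinoma replicate 1 the adjusted p was 0.162. Col1a2 and Col3a1 did not pass in frozen tissue (1.46 ± 0.58 and 1.15 ± 0.48 in adenomas, adjusted p = 0.0707 and 0.0891).

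The lesions with high fibrillar chains were also high for the chains' partner genes. Nodule replicate 4 had the highest signal of its 5-array group for 46 of the 82 matrix genes, labelled carcinoma replicate 1 of its 4-array group for 41 and carcinoma replicate 4 of its 4-array group for 38. How often these arrays were highest over all genes was not counted, so these numbers have no general share beside them. Col3a1, the fibrillar chain of reticular fibres, read 12.21 in nodule replicate 4 and 9.26 to 10.44 in the other nodules. It read 11.84, 11.85 and 11.23 in adenoma replicates 1, 2 and 6 and 10.16, 10.17 and 10.64 in replicates 3, 4 and 5. Both sets of adenomas hold lesions of animals 14 and 23, so the spread lay within animals. The same 3 adenomas held the 3 highest adenoma values of Col1a2, at 9.29, 9.59 and 9.69, of Lox, at 6.44, 8.62 and 6.56, and of Timp1, at 8.22, 7.82 and 8.14.

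**Figure D3:**
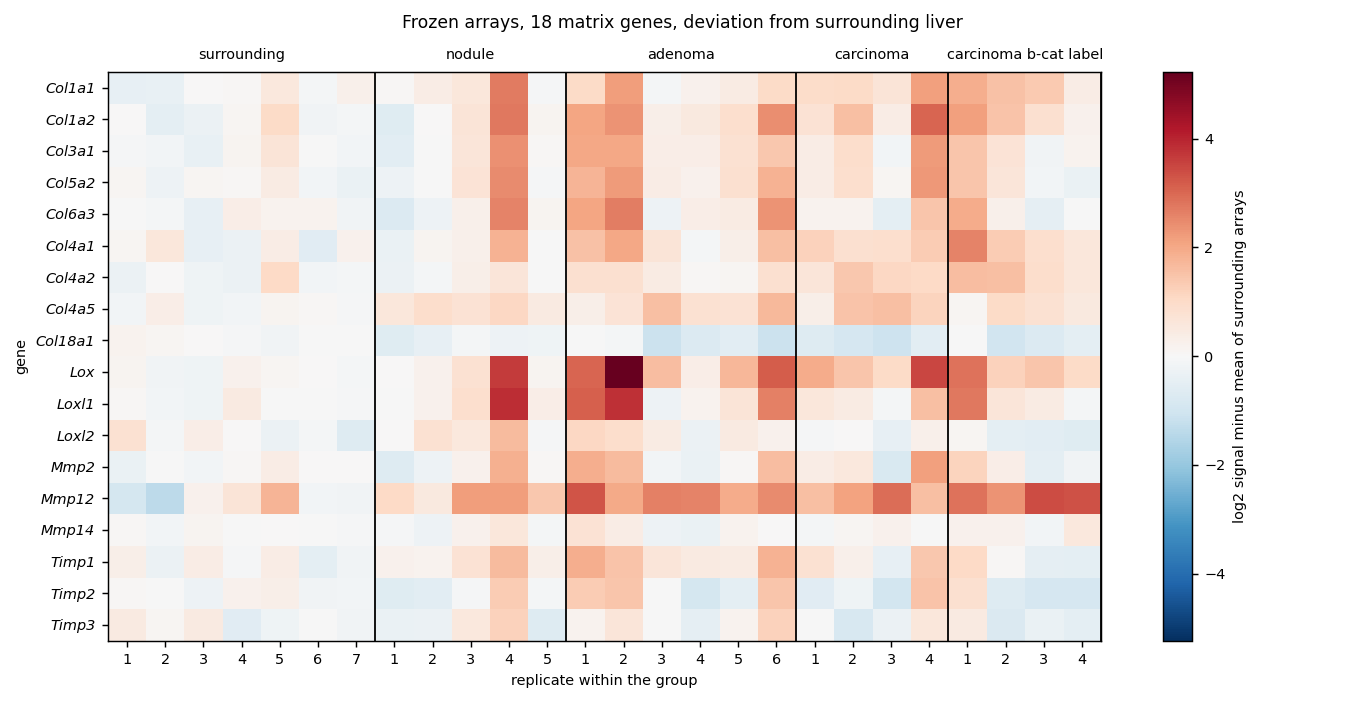
Deviation of each frozen array (columns, by group and replicate) from the mean of the surrounding arrays for 18 matrix genes (rows), on the log2 scale. Nodule 4, adenomas 1, 2 and 6, carcinoma 4 and labelled carcinoma 1 are red across the fibrillar collagens, Lox and Loxl1, while Mmp12 is red in nearly every lesion.

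Counted against the surrounding arrays, 43 of the 82 matrix genes (52.4%) in nodule replicate 4 were above the highest of the 7 surrounding values, beside 24.3% of all genes. The shares were 42.7% in adenoma replicate 1 and 42.7% in replicate 2, beside 27.6% and 22.9% of all genes. They were 39% in adenoma replicate 6, 37.8% in carcinoma replicate 4 and 41.5% in labelled carcinoma replicate 1, beside 30%, 17.9% and 20.8%. At the other end, 7.32% of the matrix genes in nodule replicate 5 and 15.9% in adenoma replicate 3 were above all surrounding arrays, beside 12.4% and 26.7% of all genes. These lesions are named for their values and were neither averaged nor tested.

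The summed signal of 20 stellate cell and fibroblast markers in the same arrays was 13.25 in nodule replicate 4, 13.22, 13.40 and 13.07 in adenoma replicates 1, 2 and 6, 13.33 in carcinoma replicate 4 and 13.25 in labelled carcinoma replicate 1. Surrounding liver spanned 12.32 to 12.66, and the other nodules 12.56 to 12.95. Carcinoma replicates 1 and 2 read 13.03 and 13.07 on this sum and adenoma replicate 3 read 13.06, with Col3a1 at 10.21, 10.75 and 10.16. The summed signal of 6 bile duct cell markers was 11.95 in nodule replicate 4 and 11.80 in labelled carcinoma replicate 1, beside 9.57 to 10.29 in surrounding liver. It was 10.75 to 12.74 in adenomas, where 2 of the 6, Krt19 and Epcam, rose, beside 15.4% of all genes. The part of these cells in the collagen values was not tested.

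**Figure D4:**
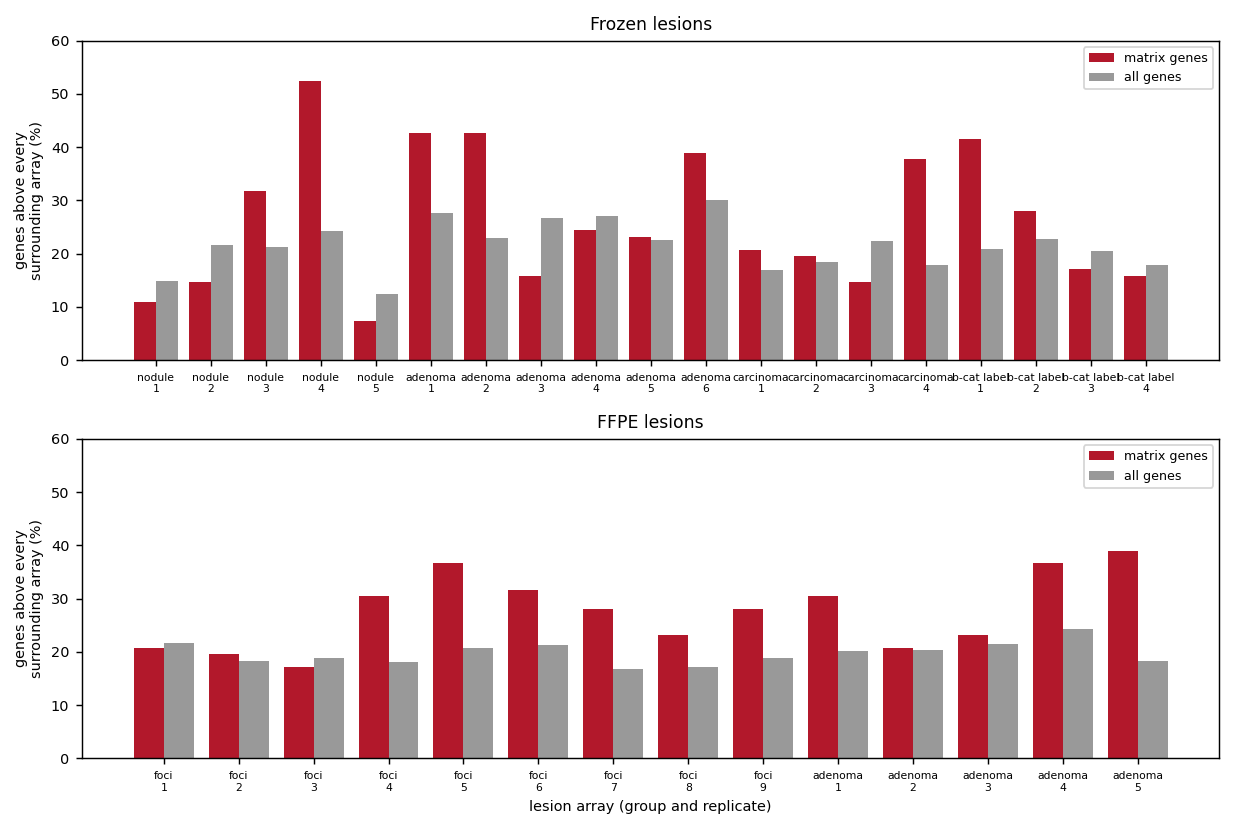
Share of genes (percent, bars from 0) whose signal in a lesion array exceeded every surrounding array of the same preparation, for the 82 matrix genes (red) and all 14217 genes (grey). Among frozen lesions the red bar is tallest in nodule 4, at 52.4% beside 24.3%, and shortest in nodule 5, at 7.32% beside 12.4%.

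The remaining collagen calls were falls. Col24a1, a low-level fibrillar chain, fell by 1.31 in carcinomas (SE 0.34, adjusted p = 0.0163) and by 1.12 in labelled carcinomas (SE 0.33, adjusted p = 0.0223). The carcinomas read 3.66, 3.43, 3.38 and 3.36 and the labelled carcinomas 3.65, 3.56, 3.58 and 4.09, all below the surrounding range of 4.14 to 5.85 (median 4.84). Genes wholly below surrounding liver made up 7.85% and 5.96% of all genes in these comparisons. Both calls were lost with the control set as block (adjusted p = 0.142 and 0.247), and without carcinoma replicate 4 (0.102) or labelled carcinoma replicate 1 (0.0917). Col13a1, a transmembrane collagen, read 4.65, 4.95, 5.22 and 5.33 in labelled carcinomas against 5.42 to 6.75 in surrounding liver (median 6.09) and fell by 0.97 (SE 0.29, adjusted p = 0.025), and with the control set as block the adjusted p was 0.0863. Col22a1, a fibril-associated chain, fell by 0.38 in adenomas (SE 0.12, adjusted p = 0.0232), and with the control set as block the adjusted p was 0.104. Col6a3, a type VI chain of the pericellular matrix, passed nowhere, with 1.25 ± 0.59 in adenomas (adjusted p = 0.129).

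Among the ADAMTS genes, Adamts1 in labelled carcinomas and Adamtsl4 in adenomas were called under every alternative. Adamts1, which cuts the proteoglycans aggrecan and versican, read 7.33, 6.56, 6.49 and 7.01 in labelled carcinomas and 7.31 to 8.68 in surrounding liver (median 8.19). Only labelled carcinoma replicate 1 reached the control range. Adamts1 fell by 1.004 in that group (SE 0.23, adjusted p = 0.00411, lower in 3 of 3 animals), a call kept without any single array and with the control set as block. The carcinomas without the label read 7.69, 7.47, 7.03 and 7.27 and did not pass (-0.54 ± 0.24, adjusted p = 0.153). Adamtsl4, an ADAMTS-like protein of the fibrillin microfibrils without protease activity, read 7.40 to 7.89 in adenomas (median 7.72) and 8.10 to 8.67 in surrounding liver (median 8.37). No adenoma overlapped the controls, as for 3.55% of all genes that were wholly lower, and its fall was 0.71 (SE 0.12, adjusted p = 0.000361). All 5 nodules, at 7.94, 7.75, 8.01, 7.86 and 7.74, were lower than every surrounding array as well, beside 0.816% of all genes, with a change of -0.51 ± 0.12 (adjusted p = 0.0765).

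The 4 other ADAMTS calls depended on the block and on single arrays. In adenomas Adamts9, which cuts aggrecan and versican, rose by 1.05 ± 0.36 (adjusted p = 0.0354), Adamts12 rose by 0.84 ± 0.27 (adjusted p = 0.0287) and Adamts7 fell by 0.54 (SE 0.17, adjusted p = 0.023). All 3 were lost with the control set as block (adjusted p = 0.148, 0.15 and 0.16), and a second Adamts9 probe set gave 0.04 ± 0.15. In fits that left out 1 array the adjusted p reached 0.0848 for Adamts9, 0.0685 for Adamts12 and 0.0608 for Adamts7. In labelled carcinomas Adamts10, which acts on fibrillin microfibrils, rose by 0.31 ± 0.09 (adjusted p = 0.0273), and with the control set as block the adjusted p was 0.131. Without labelled carcinoma replicate 1 it was also 0.131.

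In microdissected FFPE tissue the 3 main fibrillar chains rose in foci and in adenomas against surrounding liver. The FFPE array labelled C43 normal, in no comparison, read 8.14 for Col1a1, within the adenoma range. It read 8.78 for Col1a2 and 11.43 for Col3a1, above every FFPE adenoma, so high values of these chains were not confined to lesions. Col1a1 read 4.98 to 6.41 in the 4 surrounding arrays, 6.44 to 8.03 in foci (median 7.26) and 8.26, 7.95, 6.91, 8.74 and 7.46 in adenomas. Both lesion groups lay wholly above the control arrays, beside 1.2% of all genes in foci and 1.94% in adenomas. The rise was 1.21 ± 0.31 in foci (adjusted p = 0.0278) and 2.18 ± 0.35 in adenomas (4.54-fold, adjusted p = 0.000335). This probe set is not the one used in frozen tissue: that one gave 0.14 ± 0.37 and 0.10 ± 0.41 in FFPE tissue (adjusted p = 0.926 and 0.969), and the 2 probe sets for Col1a1 disagreed there.

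Col1a2 and Col3a1 gave further values for these fibres. Col3a1 read 9.46, 9.67, 9.25 and 9.37 in surrounding liver, 9.18 to 11.73 in foci (median 10.30) and 10.84, 10.72, 10.94, 11.24 and 11.01 in adenomas. The adenomas were tightly grouped and all above the controls, beside 1.94% of all genes, while the lowest focus lay below all controls. Col3a1 rose by 1.04 ± 0.22 in foci (adjusted p = 0.00582) and by 1.70 ± 0.24 in adenomas (3.26-fold, adjusted p = 8.42e-05, higher in 3 of 3 animals). Col1a2 rose by 1.12 ± 0.31 in foci (adjusted p = 0.0459) and by 1.69 ± 0.35 in adenomas (adjusted p = 0.00555). Without surrounding replicate 3 the foci calls of Col1a1, Col1a2 and Col3a1 were lost (adjusted p = 0.242, 0.518 and 0.199), with changes of 0.61 for Col1a2 and 0.61 for Col3a1. That array was the only control of animal 18, so without it the foci of animal 18 also dropped out of the comparison. Foci of animal 18 read 11.27, 11.73 and 10.87 for Col3a1 and 8.75, 8.96 and 8.01 for Col1a2. Foci of animals 10 and 7 read 9.18 to 10.3 for Col3a1 and 6.58 to 7.62 for Col1a2. The Col1a2 call in foci was kept in 9 of 18 fits that each left out 1 array and in 2 of 7 other settings, and without adenoma replicate 5 that of Col1a2 in adenomas was lost (adjusted p = 0.0501).

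Of the type IV chains, Col4a5 rose in FFPE foci and Col4a1 in FFPE adenomas. Col4a5 read 5.74, 5.98, 4.33 and 5.92 in surrounding liver and 6.53 to 7.63 in foci (median 7.08), with no overlap (1.2% of all genes lay wholly higher). Its rise in foci was 1.65 ± 0.29 (3.13-fold, adjusted p = 0.000703) and was kept without any single array. In FFPE adenomas, at 6.05, 7.03, 6.07, 7.26 and 7.10, its change was 1.02 ± 0.32 (adjusted p = 0.11). Col4a1 read 8.70, 8.40, 8.46 and 8.51 in surrounding liver and 9.91, 9.78, 9.43, 10.20 and 10.16 in adenomas, with no overlap (1.94% of all genes lay wholly higher). It rose by 1.51 ± 0.26 in adenomas (adjusted p = 0.000686), and foci gave 0.80 ± 0.23 (adjusted p = 0.0545). The second Col4a1 probe set passed in both, with 1.35 ± 0.28 in foci (adjusted p = 0.00465) and 1.68 ± 0.31 in adenomas.

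Mmp12 read 5.30, 6.14, 5.25 and 4.71 in FFPE surrounding liver, 5.69 to 7.45 in foci (median 6.65) and 5.88, 7.26, 6.61, 7.23 and 7.23 in adenomas. In each lesion group the lowest array lay below the highest control. It rose by 1.43 ± 0.33 in foci (adjusted p = 0.0123) and by 1.53 ± 0.37 in adenomas (adjusted p = 0.0226). The first call was lost without surrounding replicate 3, the only control of animal 18 (adjusted p = 0.123). The second was lost without adenoma replicate 5 (adjusted p = 0.149). Of the 9 macrophage markers 3 fell in foci, beside 1.36% of all genes, with Clec4f down by 0.70 on the log2 scale. None of the 9 passed in FFPE adenomas, where 0.872% of all genes fell and Clec4f gave -0.07 ± 0.22. The summed signal of the 9 markers was 11.43 to 12.14 in foci, 11.94 to 12.70 in adenomas and 11.79 to 12.84 in surrounding liver.

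Col23a1, a transmembrane collagen, was the only matrix gene that fell in FFPE lesions. Surrounding liver read 5.03, 5.14, 5.58 and 5.19 and adenomas 3.86, 3.87, 4.09, 4.14 and 4.51, with no overlap (1.32% of all genes lay wholly lower), and the fall was 1.10 (SE 0.30, adjusted p = 0.0466). The call was kept in 3 of 18 fits that each left out 1 array. The FFPE array labelled C43 normal read 3.70, below every adenoma. Timp1, Lox and Loxl1, high in some frozen lesions, passed in neither FFPE group, with 0.78 ± 0.34, 0.58 ± 0.35 and 0.76 ± 0.37 in adenomas. Levels were not compared between frozen and FFPE tissue.

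**Figure D5:**
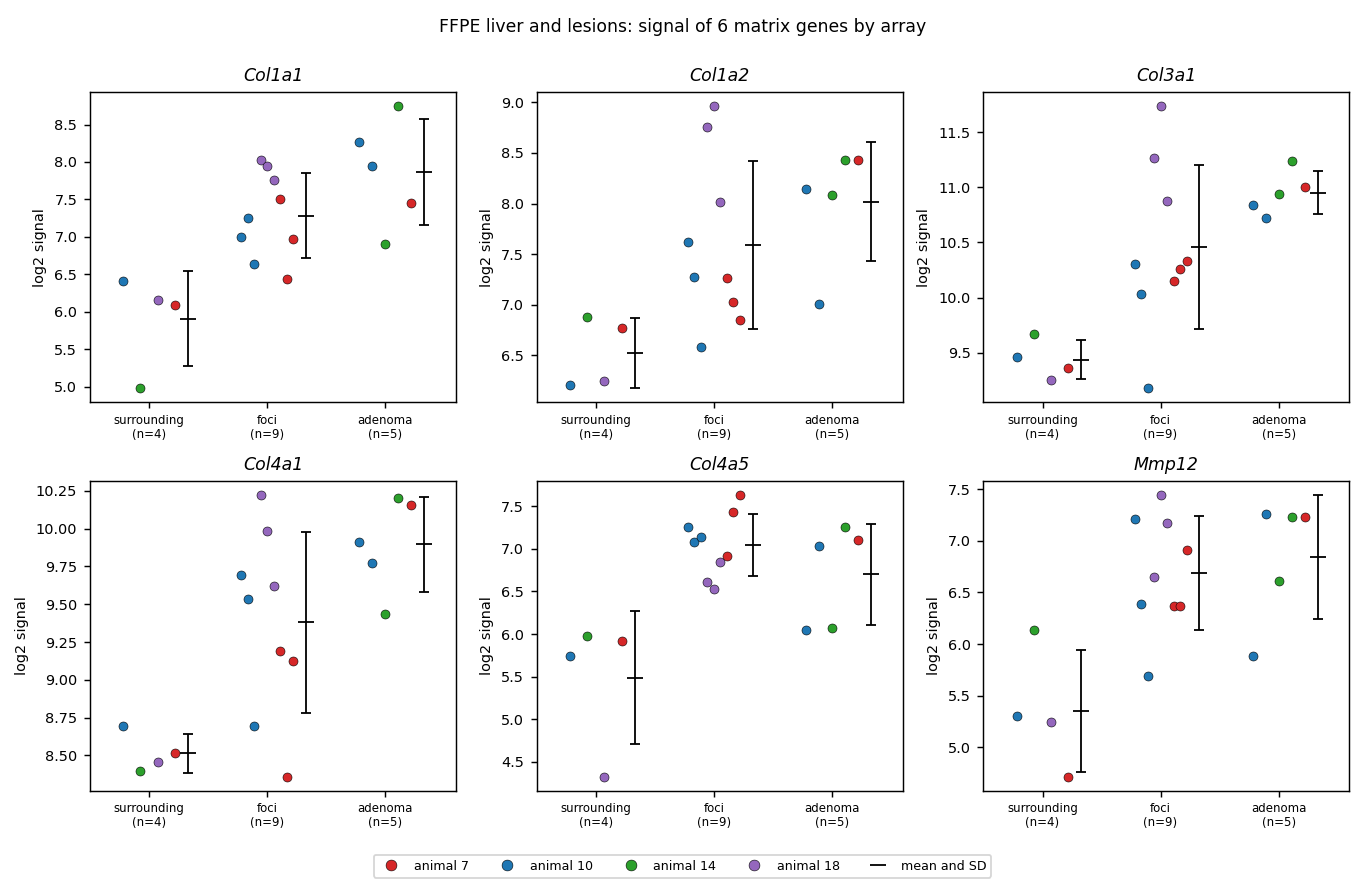
Log2 signal of 6 matrix genes in the 18 FFPE arrays by group, coloured by animal, with the group mean and SD beside the points. All 5 adenomas lie above all 4 surrounding arrays for Col1a1, Col1a2, Col3a1, Col4a1 and Col4a5, as for 1.94% of all genes. Foci of animal 18 include the highest Col3a1 value, 11.73.

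Between lesion groups few matrix genes differed. No gene of the 82 passed between adenomas and nodules, where 0% of all genes passed, or between the carcinoma groups, again 0% of all genes. None passed between carcinomas and adenomas (2.95% of all genes, 1.17% higher and 1.78% lower), or between FFPE adenomas and foci (0% of all genes). In the same order limma gave 6, 1, 8 and 9 matrix genes with an unadjusted p under 0.05. Of all 14217 genes, 2265, 723, 3111 and 633 had such a p. In the carcinomas Mmp19 lay wholly above the adenomas, beside 5.06% of all genes, and Col27a1 wholly below, beside 7.6%. Labelled carcinomas differed from adenomas in 3 of 82, 2 higher and 1 lower, beside 13.7% of all genes (5.26% higher, 8.48% lower). Adamts1 was lower by 1.16 (SE 0.25, adjusted p = 0.00671), Adamtsl4 was higher by 0.58 ± 0.14 (adjusted p = 0.0123) and Mmp19 was higher by 0.83 ± 0.20 (adjusted p = 0.00986). Mmp19, Adamtsl4 and Mmp24 lay wholly above the adenomas, beside 5.28% of all genes, and no matrix gene lay wholly below, beside 6.62%. These groups share 1 animal, and all 3 calls were lost with the control set as block (adjusted p = 0.49, 0.637 and 0.642). The groups share no control set, so that fit compares them only through the surrounding arrays. It cannot decide whether these calls hold.

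Genes that make or assemble the matrix outside the 82 were counted in the same way. Of 43 measured genes for collagen synthesis and matrix assembly, 11 rose and 1 fell in adenomas, where 15.4% of all genes rose and 9.57% fell. In carcinomas 1 rose and 1 fell, beside 4.48% and 6.91% of all genes, and in labelled carcinomas 3 rose and 1 fell, beside 7.74% and 9.58%. The risers in adenomas included laminin chains, which form the other network of basement membranes: Lamc1 by 1.34 ± 0.34, Lamb1 by 1.76 ± 0.52 and Lama4 by 0.98 ± 0.26. They also included Ppib (0.51 ± 0.09) and P4hb (0.39 ± 0.08), which fold and hydroxylate new collagen in the endoplasmic reticulum. In foci the collagen chaperone Serpinh1 rose by 1.06 ± 0.27 (adjusted p = 0.0223), and it rose by 1.31 ± 0.39 in carcinomas (adjusted p = 0.0327). The median change of the 43 genes was 0.39 in adenomas, 0.26 in carcinomas and 0.27 in labelled carcinomas, beside 0.02, -0.02 and -0.01 over all genes.

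Of 38 measured genes for matrix turnover and TGF-beta control outside these families, 9 rose and 4 fell in adenomas, 6 rose and 1 fell in carcinomas and 7 rose and 3 fell in labelled carcinomas. The shares of all genes that rose and fell are those given beside the 43 genes. Tgfb2, a TGF-beta ligand, rose by 1.64 ± 0.28, 1.95 ± 0.30 and 1.69 ± 0.28 in that order. Ddr1, a receptor kinase activated by collagen, rose by 1.84 ± 0.28, 1.26 ± 0.31 and 0.98 ± 0.29. Pdgfa, a growth factor for mesenchymal cells, rose by 0.72 ± 0.24, 1.40 ± 0.26 and 1.84 ± 0.25, and was higher in labelled carcinomas than in adenomas by 1.12 ± 0.28 (adjusted p = 0.0131). Tgfbi, a matrix protein induced by TGF-beta, fell by 0.78, 0.97 and 0.84 in the same order. In foci 1 of the 38 rose and 1 fell: Bsg, an inducer of MMPs, by 0.51 and Ctss, a cysteine protease, by 0.84.

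The stellate cell and fibroblast markers themselves moved both ways. Of 20 measured, 2 rose and 1 fell in adenomas, 1 rose and 1 fell in carcinomas and 2 rose and 1 fell in labelled carcinomas. Of all genes, 15.4% rose and 9.57% fell in adenomas, 4.48% and 6.91% in carcinomas and 7.74% and 9.58% in labelled carcinomas. The marker counts lay near these shares. Thy1, a surface marker of portal fibroblasts, rose in all 3 groups, by 0.90 ± 0.21, 0.72 ± 0.23 and 1.06 ± 0.22. Its signal was low, at 3.58 to 4.08 in surrounding liver and at most 5.16 in these lesions, so its control signal may be background. Lrat, the retinol-esterifying enzyme of quiescent stellate cells, fell by 1.45 in carcinomas and fell by 2.28 in labelled carcinomas (adjusted p = 0.0397 and 0.00105). Vim, an intermediate filament protein of mesenchymal cells, rose by 1.63 ± 0.56 in adenomas and by 1.23 ± 0.21 in FFPE adenomas.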

How the data were processed

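The study hybridised RNA of 47 rat liver samples to single-colour Affymetrix rat arrays. The authors deposited log2 signals for 31042 probe sets, per the file headers; the summarisation and normalization are not given in the sources used here. Per the labels' protocols, frozen RNA came from TRIzol and miRNeasy extracts (250 ng into the 3' IVT Express labelling kit), while FFPE RNA came from laser-microdissected tissue. Values were used as deposited, and no raw intensities were used here. The probe annotation gave 20826 probe sets with 1 gene symbol, 436 with several and 9780 with none; the last groups were left out. A gene with several probe sets was represented by the brightest on average in its preparation.

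Frozen (26 arrays, 5 animals, 17 residual degrees of freedom) and FFPE arrays (18 arrays, 4 animals, 12 residual degrees of freedom) had separate limma fits (version 3.58.1, R 4.3.3; lmFit, eBayes with trend), with group and animal as terms and Benjamini-Hochberg adjustment over 14217 genes; a gene was called at an adjusted p under 0.05. The fit was tested on simulated data. Tables used Python 3.11.15, pandas 2.3.3 and numpy 2.4.6. Samples of different groups from the same animal deviated together (median r 0.127 over 50 pairs in frozen tissue and 0.11 over 23 pairs in FFPE tissue, beside -0.025 and -0.0395 between animals), and the titles give the animals. The labels do not say that samples of 1 animal are independent, so p-values measure the spread between these samples. The number of arrays limits the precision. Marker lists are given as the log2 of their summed linear signal in each array.

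Named genes are all that passed in any comparison plus 21 anchors, 1 of them (Adamts2) not measured. The members, lists and anchors were chosen with earlier results of these data known. Alternatives changed the block, the normalization, a filter on dim genes, the probe set rule, the trend, and the samples kept.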

Additional observations from a re-analysis of the deposited data

Results flagged for a closer look

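Single arrays stood apart from the rest of their group for 15 of 200 combinations of gene and group (7.5%), over 25 genes; chance gives about 1 in 20. Each had a gap to the nearest array that took up most of the group's range.

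Nodule replicate 4 was the array in 5 of these. It was highest for Col1a1 at 8.31 (nearest nodule 6.15), for Col4a1 at 9.51 (7.98), for Lox at 7.07 (4.19) and for Adamts12 at 6.19 (5.34), and lowest for Mmp19 at 5.71 (6.07). Surrounding replicate 5, from animal 21, was highest for Col1a2 at 8.24 (nearest 7.36) and for Col4a2 at 7.56 (6.53).

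Among carcinomas, replicate 4 was highest for Adamts10 at 7.07 (nearest 6.68) and replicate 2 for Col13a1 at 6.41 (5.46). Among labelled carcinomas, replicate 4 was highest for Adamtsl4 at 8.72 (8.15) and replicate 2 lowest for Mmp11 at 3.92 (4.49).

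In FFPE tissue, surrounding replicate 3 was lowest for Col4a5 at 4.33 (nearest 5.74) and highest for Mmp17 at 6.34 (5.04). FFPE adenoma replicate 2 was lowest for Col1a2 at 7.01 (8.08), and focus replicate 8 was highest for Col5a3 at 4.91 (4.22).

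The FFPE array labelled C43 normal, which entered no comparison, read above all 4 FFPE surrounding arrays for 17 of the 82 matrix genes (20.7%, beside 27.4% of all genes) and below them all for 23 (28%, beside 27.5%). For 5 of the 25 genes shown it lay above the highest surrounding array by more than the whole surrounding range. It read 8.14 for Col1a1 (surrounding at most 6.41), 8.78 for Col1a2 (6.88), 11.43 for Col3a1 (9.67), 7.15 for Adamts1 (6.26) and 6.27 for Col13a1 (4.83). Among the genes below all surrounding arrays, Col23a1 read 3.70 (surrounding at least 5.03), Col18a1 10.36 (10.91) and Col24a1 2.91 (3.85). It is 1 array, so the difference has no replicate check. The 2 frozen C43 normal arrays each read above all frozen surrounding arrays for 12.2% of the matrix genes, beside 11.7% and 12.3% of all genes. The same rule, applied to the lower of these 2 frozen values, flagged none of the 25 genes.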

How the results depend on the processing

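Of 47 calls of a matrix gene in a comparison, 12 were kept in every alternative in which the gene was tested: Mmp12 in adenomas and both carcinoma groups, Adamtsl4, Col4a5, Lox and Timp1 in adenomas, Adamts1 and Col4a2 in labelled carcinomas, Col4a5 in foci, and Col3a1 and Col4a1 in FFPE adenomas. Of 1482 values of single genes under an alternative, 1303 kept their call, 179 lost it and 0 changed sign; a second Mmp24 probe set, added after seeing the data, turned the labelled carcinoma change to -0.14 (adjusted p = 0.524).

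With no replicate block, that is without the animal term, the matrix genes called against surrounding liver numbered 1 in nodules, 23 in adenomas and 12 in carcinomas; 1 was called between adenomas and nodules, 3 between carcinomas and adenomas and 7 between labelled carcinomas and adenomas. With the animal as a random block the counts were 1, 23 and 13 against surrounding liver, and 3 and 7 for carcinomas and labelled carcinomas against adenomas. With the labelled control set as block, 12 of 36 frozen calls were kept. That block left 0 calls between labelled carcinomas and adenomas, which share no control set and are compared there only through the surrounding arrays. Against surrounding liver the counts under that block were 7 in adenomas, 2 in carcinomas and 3 in labelled carcinomas. Without dim genes, where fewer genes were tested, they were 9, 4 and 5. Without the samples with conflicting labels, 6 passed in labelled carcinomas, 7 between these and adenomas, 5 in FFPE adenomas and 4 in foci. Without the trend, 2 passed in foci.

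Leaving out 1 array at a time gave 0 to 1 in nodules, 8 (without adenoma replicate 6) to 23 (without adenoma replicate 3) in adenomas, 2 (without carcinoma replicate 1 or 4) to 9 in carcinomas and 5 (without labelled carcinoma replicate 3) to 13 in labelled carcinomas. It gave 0 to 1 between carcinomas and adenomas, 2 to 7 between labelled carcinomas and adenomas, 1 (without FFPE surrounding replicate 3) to 6 in foci and 3 (without FFPE adenoma replicate 5) to 6 in FFPE adenomas. No share of all genes is given beside the counts under an alternative, so a shift may lie in the matrix genes or in all genes alike. The cause of these shifts was not tested.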
